A study of Bos taurus with 12 samples.

Results

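The response of cattle precursor adipocytes to HGFAC overexpression was set against their response to an interference reagent, gene by gene. The quantity tested was the log2 change of OE against OE_NC minus the log2 change of si against si_NC. A positive value marks a gene that stood higher, relative to its own control, after overexpression than after interference. All genes that passed a filter on low counts entered, 16300 of the 29240 genes in the table.

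RNA was sequenced from Bos taurus precursor adipocytes in 4 groups of 3 libraries, 48 h after transfection. OE cells received a pcDNA3.1 plasmid carrying the coding region of HGFAC, and OE_NC cells received the pcDNA3.1 negative control plasmid. The si cells received the interference reagent and the si_NC cells its negative control, and the labels name no target for it. All 12 libraries were stranded and made from polyadenylated RNA extracted with TRIzol. The 2 experiments share no library, so each change has its own control, and the reagent (plasmid or interference) and the experiment cannot be told apart. Whether replicates came from separate cultures is not stated in the labels; p-values therefore measure only the spread among these libraries, which may be technical.

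HGFAC encodes the hepatocyte growth factor activator, a secreted serine protease best known as a plasma protein made by the liver. It cleaves the inactive precursor of hepatocyte growth factor (HGF), and the cleaved factor signals through the receptor tyrosine kinase MET. Precursor adipocytes are fibroblast-like stromal cells that can be driven to fill with lipid under the control of PPARG and the C/EBP factors. Before that switch they express matrix, contractile and proliferation genes and little of the fat cell program.

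The libraries held 29.0 to 42.7 M counts each. Levels are normalised CPM, counts scaled to a common library size, in replicate order 1 to 3. The labelled cell type was checked against its markers: all 10 stromal markers were detected, PDGFRA at a mean of 275 CPM and DCN, the matrix proteoglycan decorin, at 718 CPM. The fat cell markers ADIPOQ and LEP averaged 0.0604 and 0.109 CPM, and FABP4 averaged 7.10 CPM. In these bulk libraries fewer cells of a type and less RNA per cell cannot be told apart. Replicate 3 of si and replicate 2 of si_NC stood apart: each correlated best with the other (Pearson r = 0.9881 on log2 CPM), above either one's best correlation within its own group (0.9858 and 0.9852). Replicate 3 of si_NC was also slightly closer to replicate 2 of si (0.9889) than to any library of its own group (at most 0.9882). OE_NC replicate 1 stood apart in its reads from short genes, as described with gene length.

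HGFAC itself was counted 6842, 5467 and 4472 times in OE, against 10, 15 and 19 in OE_NC, 31, 23 and 22 in si and 25, 21 and 28 in si_NC. The OE libraries lay far above the other 9, and the si and si_NC libraries overlapped. Its log2 difference was 9.02 ± 0.39 (SE; adjusted p = 6.39e-09), made of a change of 8.67 in OE and of -0.35 in si, the latter with an adjusted p of 0.512. Adjusted p-values are from edgeR's quasi-likelihood test with Benjamini-Hochberg adjustment over all 16300 genes, called below 0.05. Among 13 tested genes of HGF activation and signalling, HGFAC was the only one called in the difference. HGF, the substrate's gene, averaged 0.825 CPM with a difference of 0.10 ± 0.69. MET averaged 10.3 CPM with a difference of -0.25 ± 0.17. PLAU, the urokinase protease that can also activate HGF, rose in both experiments, by 0.44 in OE (adjusted p = 0.0457) and 0.48 in si (adjusted p = 0.0434), and its difference was -0.036 ± 0.17.

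Across all genes, 1371 were called in the difference, 8.41 percent of those tested. Of these, 700 were positive (4.29 percent) and 671 negative (4.12 percent). The single experiments gave fewer calls, 728 genes (4.47 percent) in OE and 414 (2.54 percent) in si. Only 70 genes were called in both experiments, and 67 of them moved in opposite directions, 35 up in OE and down in si and 32 the reverse. All 67 were called in the difference, which calls of opposite sign favour. These calls rest on a spread shared by all 12 libraries. In its own 6 libraries si gave 8 calls and OE 1621. The remaining calls in the difference were carried by 1 experiment or by the sum of smaller changes. Among the positive genes, 201 had risen in OE without a call in si, 171 had fallen in si without a call in OE, and 293 passed in neither experiment. Among the negative genes the matching numbers were 240 down in OE, 79 up in si and 320 in neither.

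More negative than positive differences were large. Of the 346 genes called with a difference of at least 2-fold, 322 were negative and 24 positive. Genes with a negative difference had a median log2 change of -0.54 in OE and 0.40 in si, and genes with a positive difference 0.24 in OE and -0.24 in si. The positive genes were also more abundant, with a median level of 94.6 CPM against 9.85 CPM for the negative ones and 8.44 CPM for all genes tested. In 691 of the 1371 genes the libraries of treatment and control did not overlap in either experiment and the changes ran in opposite directions. This was not counted over all 16300 genes, and choosing genes by the difference favours it, so it is a description only. The near equal split of directions rests on the scaling: 51.1 percent of calls were positive with TMM scaling, 17.3 percent when only library totals were used (265 positive, 1269 negative) and 75.3 percent when a trend on gene length was taken out (1365 positive, 447 negative). With library totals the median difference of all genes was -0.16, against -0.025 with TMM scaling. Values below are to be read against that shift.

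**Figure D1:**
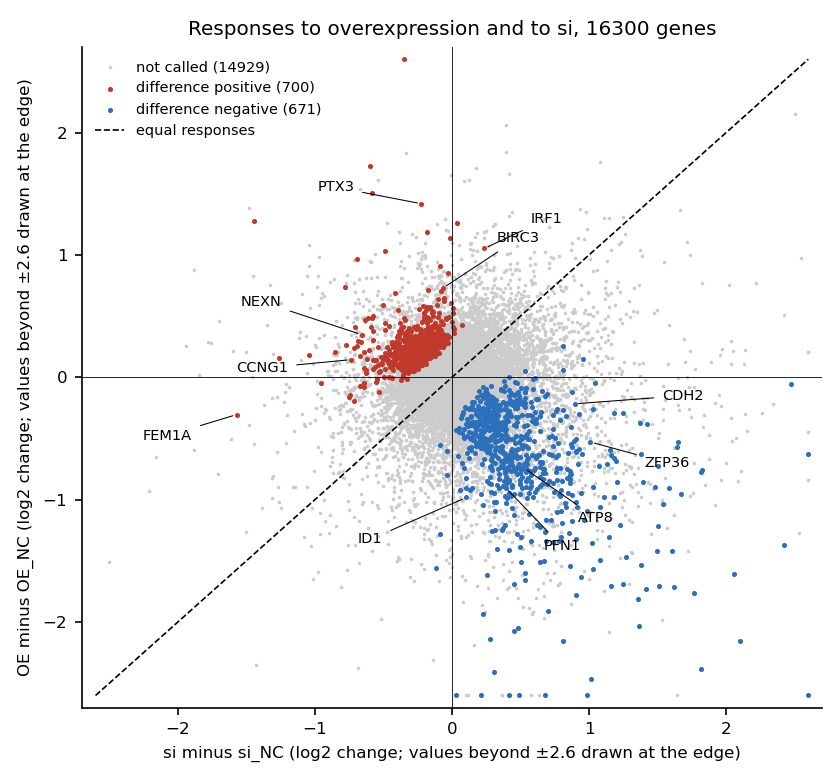
Log2 change in OE against OE_NC (vertical) and in si against si_NC (horizontal) for each of 16300 genes, with values beyond 2.6 drawn at the edge. Coloured points are the 700 genes with a positive and the 671 with a negative difference, and HGFAC is drawn at the upper edge. Because they were chosen by the difference, the coloured points lie off the dashed line of equal responses. That choice also favours the quadrants of opposite sign, which hold 1338 of the coloured genes and 54.2 percent of all genes tested.

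NEXN, which encodes the actin-binding protein nexilin, had the smallest p after HGFAC among named genes with a positive difference. It measured 9573, 9371 and 8669 CPM in OE, 7274, 7287 and 7129 in OE_NC, 7160, 7525 and 7941 in si, and 12550, 11620 and 11510 in si_NC. OE lay above its control and si below its own, with no overlap in either experiment. The difference was 1.00 ± 0.09 (adjusted p = 7.18e-05), from a rise of 0.35 in OE and a fall of 0.66 in si. Its exons share 1059 of 4880 bases with FUBP1 on the other strand, and the strand setting of the counting is not given in the sources used here. ABCA1, the transporter that exports cellular cholesterol to apolipoproteins, showed the same order with no overlap: 37.3, 38.0 and 39.4 CPM in OE, 28.4, 27.5 and 28.2 in OE_NC, 16.02, 17.5 and 11.7 in si, and 22.3, 20.0 and 21.2 in si_NC. Its difference was 0.93 ± 0.16 (adjusted p = 0.00468). BABAM1, a subunit of BRCA1-associated complexes in DNA repair, had a difference of 0.88 ± 0.14 (adjusted p = 0.0036), having risen in OE by 0.39 and fallen in si by 0.49.

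The genes of the mitochondrial genome moved the other way, as a group. It encodes 13 subunits of the respiratory chain and the ATP synthase. All 13 had a negative difference and 11 were called (84.6 percent), with a list median of -0.68 against -0.025 for all genes. In the single experiments 9 fell in OE and 8 rose in si. ATP8, a subunit of the ATP synthase, had the smallest p after HGFAC. It measured 1603, 1472 and 1497 CPM in OE, 2671, 2588 and 2372 in OE_NC, 2730, 2776 and 2762 in si, and 1940, 1977 and 1832 in si_NC. The groups did not overlap in either experiment, and the difference was -1.26 ± 0.09 (adjusted p = 5.4e-06). ND1, a core subunit of complex I, lay at 968, 984 and 968 CPM in OE, 1403, 1322 and 1287 in OE_NC, 1475, 1493 and 1724 in si, and 1191, 1240 and 1304 in si_NC. Its difference was -0.79 ± 0.10 (adjusted p = 0.00107). The smallest effects were in ND4L (-0.22) and ND5 (-0.27), the only 2 mitochondrial subunits that were not called.

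The ND6 transcript comes from the other strand of the mitochondrial genome, and its difference was -1.003 ± 0.12 (adjusted p = 0.000928). Among named genes, the mitochondrial tRNA genes KEH36_t14 and KEH36_t20 had differences of -1.11 ± 0.12 and -1.11 ± 0.16, with falls in OE and rises in si that both passed the test. ATP8 shares 40 of its 201 bases with ATP6. The mitochondrial share, taken as the 13 subunit genes without the tRNA genes, was a percentage of all counts on named genes. It was 1.31 to 1.37 percent in OE, 1.72 to 1.80 in OE_NC, 2.01 to 2.26 in si and 1.58 to 1.70 in si_NC, with no overlap between groups. When each library's trend on gene length was taken out, 4 of the 13 stayed called, the median was -0.25, and the adjusted p was 0.0502 for ND6 and 0.062 for COX3, a core subunit of complex IV. Between 9 and 11 stayed called when each library was left out in turn.

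**Figure D2:**
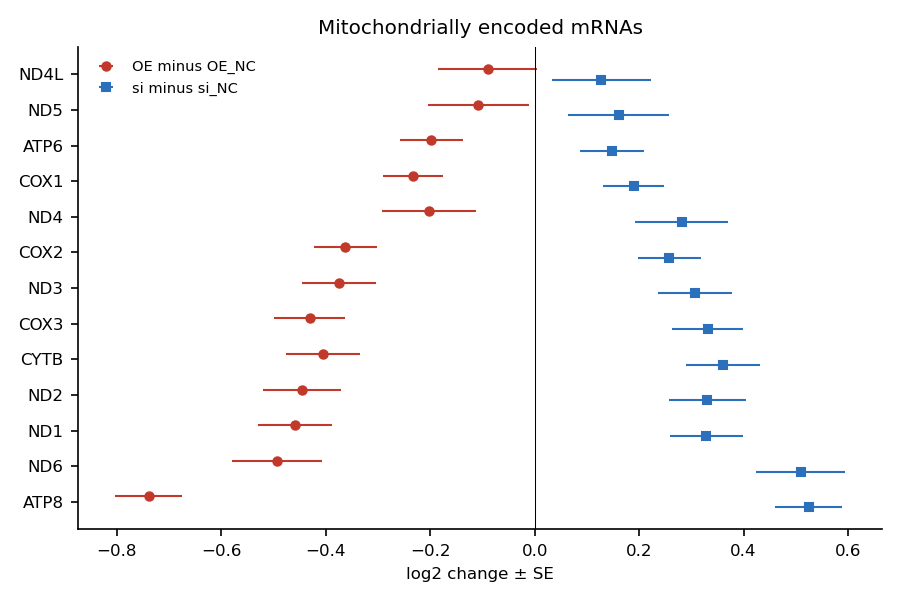
Log2 change with its standard error for the 13 subunits encoded by the mitochondrial genome, in OE against OE_NC (red circles) and in si against si_NC (blue squares). All 13 red points lie left of 0 and all 13 blue points right of it; ATP8 has the widest gap, -0.74 against 0.52, and ND4L the narrowest, -0.09 against 0.13.

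Nuclear genes of the respiratory chain were called in smaller part. Of 42 tested, 7 (16.7 percent) had a called negative difference and none a positive one, with a median of -0.099. In OE 7 fell, and in si no member passed the test. COX5A, a subunit of complex IV, had a difference of -0.98 ± 0.18 (adjusted p = 0.0057). It measured 8.20, 6.24 and 5.73 CPM in OE against 13.5, 12.8 and 11.9 in OE_NC, while si (15.04, 15.3, 13.6) and si_NC (14.7, 12.6, 14.9) overlapped. The ATP synthase subunits ATP5F1D, ATP5MC1 and ATP5MC3 had differences of -0.95, -1.03 and -0.95, each with a fall in OE. The direction of these calls was not kept with the length trend taken out, when 7 members were called positive and 5 negative. The list median was then 0.14, against 0.06 for all genes in that fit, which gave 1365 positive and 447 negative calls. Leaving out OE_NC replicate 1 gave 3 positive and 6 negative calls, and leaving out si replicate 1 gave 4 negative calls.

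Genes of actin and its partners gave few calls, among them PFN1 and ACTA1, which are in the 12 largest negative differences of named genes with a mean of at least 5 CPM. PFN1, which encodes the actin monomer-binding protein profilin, measured 211, 169 and 166 CPM in OE, 395, 312 and 312 in OE_NC, 320, 306 and 265 in si, and 227, 207 and 245 in si_NC. OE lay below its control and si above its own without overlap. The difference was -1.29 ± 0.16 (adjusted p = 0.00107), and the fall in OE of 0.90 passed the test while the change in si of 0.39 did not (adjusted p = 0.0814). ACTA1, skeletal muscle actin, had a difference of -1.22 ± 0.19 (adjusted p = 0.00348). CNN2, the actin-binding protein calponin 2, had a difference of -0.73 ± 0.11 (adjusted p = 0.00303), with a rise of 0.48 in si. Of 28 genes of actin turnover 2 were called, PFN1 and CAPZA2, which is 7.14 percent against 8.41 percent of all genes, and the median was -0.071. CAPZA2, a subunit of the capping protein, was not called with the length trend taken out (adjusted p = 0.0893). Among 20 smooth muscle and contractile genes, 3 were positive and CNN2 negative, and with library totals none was positive and 2 were negative. The 3 positive calls were all lost without si replicate 1 or 2, any OE replicate, or OE_NC replicate 1 or 2.

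The largest negative differences among named genes of at least 5 CPM were in RN18S1 (-1.75 ± 0.51, adjusted p = 0.0466) and RN7SL1 (-1.61 ± 0.47, adjusted p = 0.0489). Replicates differed widely, with RN18S1 at 598, 649 and 151 CPM in si. Each kept its call in 2 of the 12 fits that left out a library. The part of library preparation in these calls was not tested. Further named genes with negative differences were H2AFV, CDH2 and TRDMT1. H2AFV, a replication-independent variant of histone H2A, measured 60.0, 46.8 and 45.4 CPM in OE, 105, 77.9 and 90.2 in OE_NC, 93.1, 114 and 101 in si, and 69.8, 75.2 and 74.0 in si_NC. The changes passed the test in both experiments, a fall of 0.84 in OE and a rise of 0.49 in si, and the difference was -1.34 ± 0.17 (adjusted p = 0.00107). CDH2, or N-cadherin, the adhesion molecule of mesenchymal cells, measured 57.9, 60.3 and 54.1 CPM in OE, 72.5, 66.8 and 60.9 in OE_NC, 72.7, 72.4 and 69.4 in si, and 42.5, 33.3 and 39.6 in si_NC. The 3 si_NC libraries lay below the other 9. Its difference of -1.11 ± 0.13 (adjusted p = 0.000793) held a rise of 0.89 in si and a change of -0.22 in OE that did not pass (adjusted p = 0.175). TRDMT1, an RNA methyltransferase, had a difference of -1.09 ± 0.12 (adjusted p = 0.000311); its exons share 71 bases with VIM, a more abundant gene.

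Targets of TGF-beta, BMP and YAP signalling were negative in the difference where they were called. Of 25 tested, 7 (28 percent) were negative and none positive, with a list median of -0.19. In OE 5 fell, and in si 3 rose. The ID proteins are inhibitors of basic helix-loop-helix factors and classical targets of BMP signalling. ID1 measured 4.77, 3.36 and 3.88 CPM in OE, 8.56, 7.68 and 7.50 in OE_NC, 9.52, 10.5 and 11.2 in si, and 9.85, 10.2 and 9.05 in si_NC. The OE libraries were the lowest of the 12, and si overlapped its control. The difference of -1.09 ± 0.18 (adjusted p = 0.00374) held a fall of 0.98 in OE and a change of 0.10 in si that did not pass (adjusted p = 0.699).

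ID2, of the same family, passed the test in both experiments. It measured 14.5, 16.1 and 14.8 CPM in OE, 22.7, 20.9 and 17.7 in OE_NC, 25.5, 25.97 and 27.4 in si, and 14.7, 19.5 and 19.2 in si_NC, with no overlap in either experiment. Its difference was -0.9997 ± 0.16 (adjusted p = 0.0036). SMAD6, an inhibitor of BMP signalling that is itself induced by it, had a difference of -0.93 ± 0.18 (adjusted p = 0.00819). AJUBA, a scaffold that restrains the Hippo kinases, had a difference of -0.91 ± 0.17 (adjusted p = 0.00668). TGFBI, a matrix protein named for its induction by TGF-beta, was called at -0.59 with a rise of 0.50 in si; it was not called without any one OE replicate, si_NC replicate 1 or 3, or OE_NC replicate 2. The list gave 4 negative calls without OE replicate 2 or without OE_NC replicate 2, 9 without si replicate 3, and between 5 and 8 without any other single library. Without all 3 libraries that stood apart it gave 11 negative and 1 positive.

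Immediate early genes, which respond within minutes to growth factors and stress, were also called in the negative direction: 7 of 32 (21.9 percent) negative and none positive, with a median of -0.26. In OE 5 fell, and in si 3 rose. ZFP36, which encodes an RNA-binding protein that speeds the decay of cytokine mRNAs, measured 3.16, 2.05 and 2.22 CPM in OE, 3.38, 3.94 and 3.404 in OE_NC, 5.08, 4.36 and 4.46 in si, and 2.00, 2.64 and 2.27 in si_NC. The si libraries were the highest and did not overlap their control. The difference was -1.54 ± 0.25 (adjusted p = 0.00364), of which the rise of 1.01 in si passed the test and the change of -0.53 in OE did not (adjusted p = 0.0944). DUSP1, a phosphatase that switches off MAP kinases, passed in both: it fell by 0.32 in OE and rose by 0.41 in si, for a difference of -0.73 ± 0.12 (adjusted p = 0.00366). IER5L was carried by OE, with 6.57, 4.81 and 5.21 CPM in OE, 11.7, 9.58 and 9.80 in OE_NC, 14.03, 12.6 and 14.7 in si, and 12.8, 12.4 and 13.1 in si_NC. Its difference was -1.01 ± 0.17 (adjusted p = 0.00455), with overlapping si groups. The best known members were not called: FOS had a difference of -0.46, EGR1 of -0.63 and JUN of 0.23. The list gave 4 calls without si replicate 1, si replicate 2 or OE_NC replicate 2.

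Targets of p53 were called mostly through their change after interference. Of 25 tested, 4 were positive and 1 negative, with a median of 0.16, and the 4 positive members were those that fell in si. CCNG1, which encodes cyclin G1, an early p53 target, measured 149, 143 and 142 CPM in OE, 137, 128 and 128 in OE_NC, 122, 128 and 124 in si, and 214, 202 and 208 in si_NC. The si_NC libraries were the highest of the 12. The difference of 0.88 ± 0.09 (adjusted p = 0.000211) held a fall of 0.74 in si and a change of 0.14 in OE that did not pass (adjusted p = 0.18). ZMAT3, an RNA-binding p53 target, repeated this order with 40.5, 39.0 and 39.3 CPM in OE, 38.0, 35.8 and 38.4 in OE_NC, 33.7, 35.0 and 29.2 in si, and 48.3, 51.8 and 52.4 in si_NC. Its difference was 0.72 ± 0.11 (adjusted p = 0.00323).

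The other positive p53 targets were repair genes. XPC, which recognises damaged DNA in nucleotide excision repair, had a difference of 0.48 ± 0.09 (adjusted p = 0.00552). POLK, a polymerase that copies past damaged bases, had a difference of 0.72 ± 0.12 (adjusted p = 0.00419). BAX, the pore-forming cell death protein, was the negative member at -0.56. The central targets MDM2 (0.19) and CDKN1A (0.05) were not called. The count of positive members was 4 whichever single library was left out, and BAX lost its call without si replicate 2, without OE replicate 2 and with the length trend taken out.

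Inflammatory and NF-kB genes were called mostly through their change after overexpression. Of 27 tested, 6 (22.2 percent) were positive and none negative, with a median of 0.28. In OE 6 members rose, but not the same 6. The chemokine gene CXCL5 was called in the difference at 0.71 though it passed in neither OE (adjusted p = 0.0796) nor si (adjusted p = 0.196). BIRC3, an NF-kB target that restrains cell death, measured 38.0, 39.6 and 41.1 CPM in OE, 23.2, 23.6 and 24.9 in OE_NC, 22.5, 22.9 and 20.8 in si, and 23.6, 22.4 and 23.4 in si_NC. The 3 OE libraries were higher than the other 9, which lay close together. The difference was 0.80 ± 0.11 (adjusted p = 0.00152), with a rise of 0.73 in OE and -0.07 in si. CXCL2, a chemokine that attracts neutrophils, measured 15.7, 14.98 and 18.6 CPM in OE, 6.79, 7.23 and 7.55 in OE_NC, 7.56, 6.67 and 10.5 in si, and 8.01, 12.4 and 7.64 in si_NC. OE again stood above all others, and the difference was 1.38 ± 0.26 (adjusted p = 0.00712).

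PTX3, or pentraxin 3, which is secreted on inflammatory signals and binds microbes, had the largest positive difference after HGFAC among named genes of at least 5 CPM. It measured 29.7, 32.2 and 33.9 CPM in OE, 7.91, 12.1 and 15.8 in OE_NC, 3.15, 3.11 and 4.02 in si, and 2.09, 6.26 and 3.67 in si_NC. OE was the highest group, OE_NC came next, and si and si_NC overlapped. The difference of 1.64 ± 0.40 (adjusted p = 0.0231) was not called without si replicate 1 or 2, OE replicate 2 or 3, si_NC replicate 2 or OE_NC replicate 2. The list as a whole gave 2 calls without si replicate 1 or 2 or without OE replicate 2 or 3, 3 without si_NC replicate 2 or OE_NC replicate 2, 3 with library totals, and 8 with the length trend taken out.

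Interferon genes rose in OE more often than they were called in the difference. Of 49 tested, 11 rose in OE and none fell, and in si 1 fell. In the difference 5 were positive and 1 negative (12.2 percent, against 8.41 percent of all genes), and the median was 0.26. IRF1, a transcription factor induced by interferon, measured 24.97, 26.9 and 28.9 CPM in OE, 12.1, 13.0 and 13.8 in OE_NC, 12.3, 9.78 and 9.57 in si, and 8.14, 10.4 and 8.31 in si_NC. OE was highest, and the si groups overlapped. The difference was 0.82 ± 0.17 (adjusted p = 0.0115), against a rise of 1.05 in OE and a si estimate of 0.24 that did not pass (adjusted p = 0.322).

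TRIM25, a ubiquitin ligase that helps activate the RNA sensor RIG-I, passed in both experiments with opposite signs. It measured 79.5, 85.0 and 88.0 CPM in OE, 61.5, 63.4 and 69.2 in OE_NC, 73.7, 68.4 and 72.2 in si, and 89.1, 94.3 and 86.1 in si_NC, with no overlap within an experiment. Its difference was 0.71 ± 0.10 (adjusted p = 0.00219). GBP5, a guanylate-binding protein, had a difference of 2.08 ± 0.44 (adjusted p = 0.0116) at levels of 0.411 to 2.03 CPM. CXCL11, an interferon-induced chemokine, was the negative member at -1.92, and it kept that call only without si replicate 3, si_NC replicate 1 or OE_NC replicate 3. The effector genes MX1 (0.38) and ISG15 (0.08) were not called in the difference. The list gave 3 positive calls without si replicate 1 or 2, OE replicate 1 or 2, or OE_NC replicate 1 or 2, 3 with library totals, and 9 without si replicate 3.

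**Figure D3:**
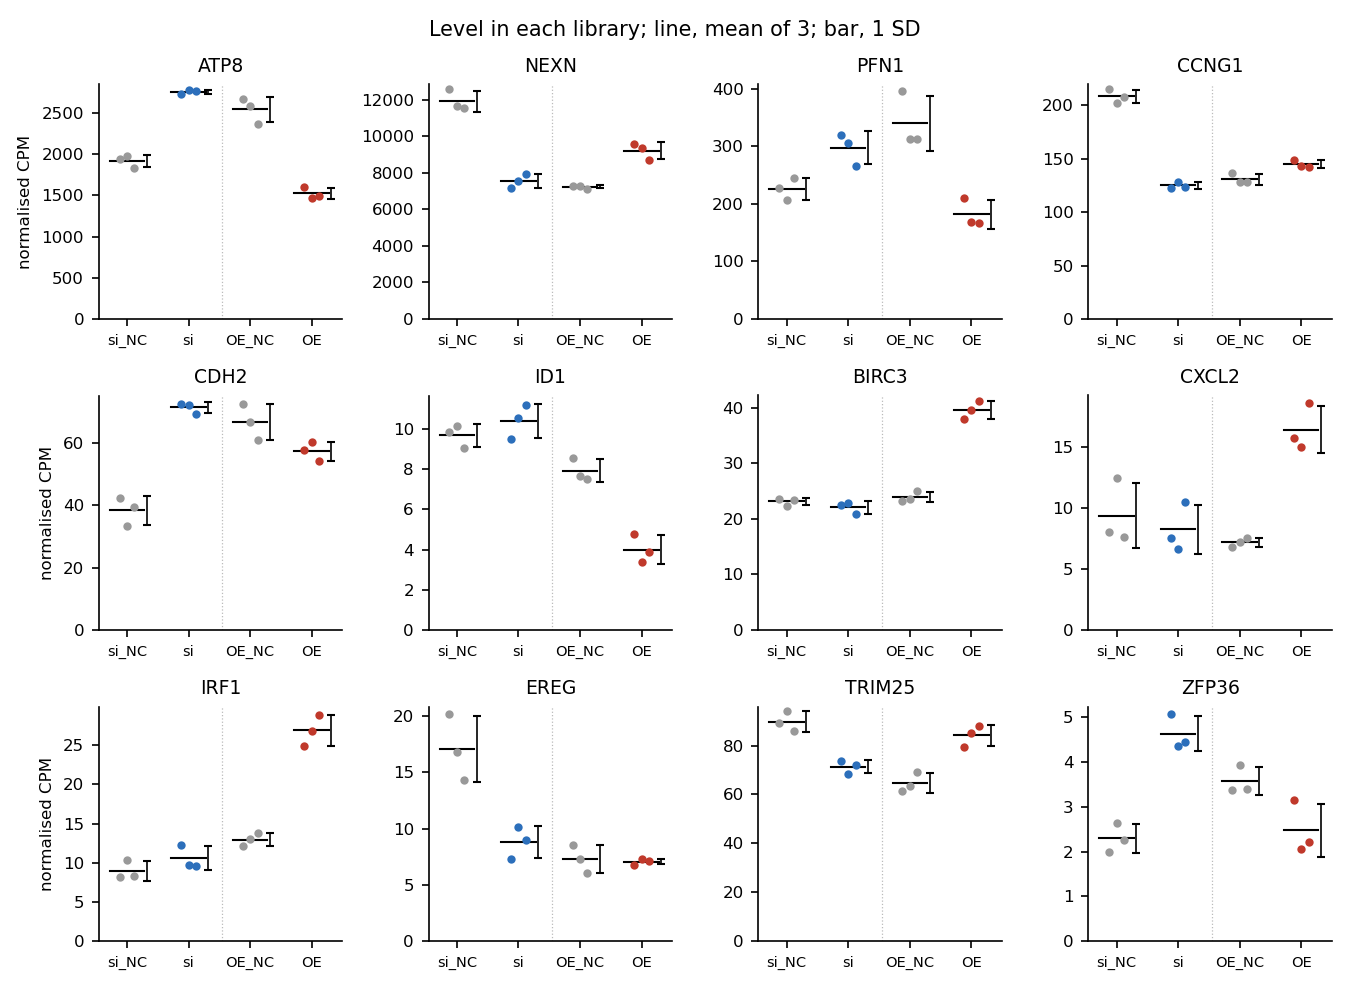
Normalised CPM of 12 genes in each library of si_NC, si, OE_NC and OE (points), with the mean of the 3 libraries as a line and 1 SD as a bar. In ATP8, PFN1 and ZFP36 the treated groups move in opposite directions from their controls, CCNG1, CDH2 and EREG stand apart in si_NC, and BIRC3, CXCL2, IRF1 and ID1 stand apart in OE.

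Growth factor genes were called in both directions. Of 15 EGF and FGF ligands and receptors 2 were positive and 1 negative (20 percent, against 8.41 percent of all genes). The negative one was FGFR1, an FGF receptor, at -0.38 ± 0.09 (adjusted p = 0.0198). FGFR1 was not called without si replicate 2 or OE replicate 1 or 3. FGF2, basic fibroblast growth factor, measured 8.43, 9.60 and 8.07 CPM in OE, 6.71, 8.09 and 6.89 in OE_NC, 6.25, 4.98 and 5.09 in si, and 8.54, 9.77 and 9.62 in si_NC. It fell in si by 0.78 without overlap, and the change in OE, where the groups overlapped, did not pass. Its difference was 1.04 ± 0.18 (adjusted p = 0.00424), and 1122 of its 6594 exon bases are shared with NUDT6 on the other strand. EREG, an EGF receptor ligand, measured 6.79, 7.26 and 7.12 CPM in OE, 8.54, 7.33 and 6.03 in OE_NC, 7.26, 10.1 and 8.97 in si, and 20.1, 16.8 and 14.3 in si_NC. Its difference of 0.91 ± 0.22 (adjusted p = 0.0219) came from a fall of 0.96 in si, and it was not called without si replicate 1, OE replicate 2, si_NC replicate 1 or OE_NC replicate 2. VEGFA and ADAM17 were named from other lists. VEGFA, the angiogenic growth factor, had a difference of -0.57 ± 0.11 (adjusted p = 0.00695) with a rise of 0.37 in si. ADAM17, the protease that sheds EGF family ligands from the cell surface, had a difference of 0.55 ± 0.10 (adjusted p = 0.00524) with a rise of 0.40 in OE.

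Genes of fat cell formation gave few calls. None of 21 adipogenic transcription factors was called by edgeR, 6 had an unadjusted p under 0.05, DESeq2 called 1 positive and limma on log2 RPKM called 1 negative. PPARG, the central factor, had a difference of -0.40 (adjusted p = 0.0762). Of 20 regulators that oppose adipogenesis, GATA2 (-0.47) and SOX9 (-0.83) were called negative (10 percent, against 8.41 percent of all genes). GATA2 fell in OE and SOX9 rose in si. The GATA2 call in the difference was lost without any one of 11 libraries, all but OE_NC replicate 3. Among 18 adipocyte and lipid droplet genes FABP5, a fatty acid-binding protein, was called at 0.53 ± 0.11 (adjusted p = 0.00946), with 214, 223 and 201 CPM in OE, 180, 178 and 189 in OE_NC, 158, 148 and 168 in si, and 215, 185 and 189 in si_NC. It was higher in OE than in its control and lower in si, without overlap.

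Sterol synthesis was called at about the share of all genes. Of 24 genes of cholesterol synthesis and uptake, 19 had a positive difference, with a median of 0.35. Those called were 2, both positive, which is 8.33 percent against 8.41 percent of all genes. SC5D, a late enzyme of the pathway, measured 37.5, 44.0 and 44.8 CPM in OE, 31.0, 36.1 and 36.0 in OE_NC, 53.1, 50.2 and 60.1 in si, and 74.3, 76.8 and 65.5 in si_NC. The groups did not overlap in either experiment, and the difference was 0.70 ± 0.14 (adjusted p = 0.00902). CYP51A1, which removes a methyl group from lanosterol, was called at 0.95 ± 0.26 (adjusted p = 0.037), and it kept that call only without si replicate 3, si_NC replicate 1 or 3, or OE_NC replicate 3. Without si replicate 3, 10 of the 24 were called, all positive.

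Cytosolic ribosomal protein genes, short genes of high abundance, were called mostly in opposite directions with and without the length trend. Of 55 ribosomal protein genes 7 were negative (12.7 percent) and none positive, with a median of -0.21. With the length trend taken out 8 were positive and 1 negative. The list median was then 0.18, against 0.06 for all genes in that fit. RPL6 measured 1219, 1280 and 1421 CPM in OE, 2331, 1981 and 1880 in OE_NC, 1635, 1611 and 1215 in si, and 1485, 1199 and 1407 in si_NC. OE was below its control and the si groups overlapped, for a difference of -0.78 ± 0.17 (adjusted p = 0.0116). The number of negative calls was 22 without si replicate 3, 10 without OE_NC replicate 3, 3 without si replicate 1 or 2 or OE replicate 1 or 2, and 4 without OE replicate 3.

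Of 38 biogenesis factors, 33 had a positive difference, and the median was 0.19, against -0.025 for all genes. Only 2 were called, which is 5.26 percent against 8.41 percent of all genes. PES1 and TSR1, both needed for ribosome subunit assembly, had differences of 0.60 (adjusted p = 0.035) and 0.64 (adjusted p = 0.0234), with falls in si. PES1 kept its call only without si replicate 3, si_NC replicate 2 or OE_NC replicate 1, and TSR1 only without these or si replicate 2. The list gave 9 calls without si_NC replicate 2, 5 without OE_NC replicate 1, none without any of 8 other libraries, and 25 without the 3 libraries that stood apart.

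DNA replication genes gave no call in the difference among 35 tested, with a median of -0.16. By edgeR 4 had an unadjusted p under 0.05, DESeq2 called 1 negative and limma on log2 RPKM called none. Of 30 genes of mitosis and G2/M, CDC20 and BIRC5 were called, which is 6.67 percent against 8.41 percent of all genes. CDC20, an activator of the anaphase-promoting complex, had a difference of -0.9988 ± 0.20 (adjusted p = 0.00819). BIRC5, or survivin, had a difference of -0.72 ± 0.17 (adjusted p = 0.0171) and lost its call without si replicate 1 or 2 or OE replicate 2. Genes of the unfolded protein response gave 3 positive calls of 31 (9.68 percent), near the share of all genes. Among them was CANX, an endoplasmic reticulum chaperone (0.39 ± 0.08, adjusted p = 0.0103). With library totals the list gave 3 negative calls and none positive. It gave 1 positive call without si replicate 1 or 2, OE replicate 1 or OE_NC replicate 2. Collagens and matrix proteins gave 2 negative calls of 40 (5 percent), below the share of all genes. BGN, the proteoglycan biglycan, had a difference of -0.71 ± 0.13 (adjusted p = 0.00586) with a rise of 0.47 in si.

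**Figure D4:**
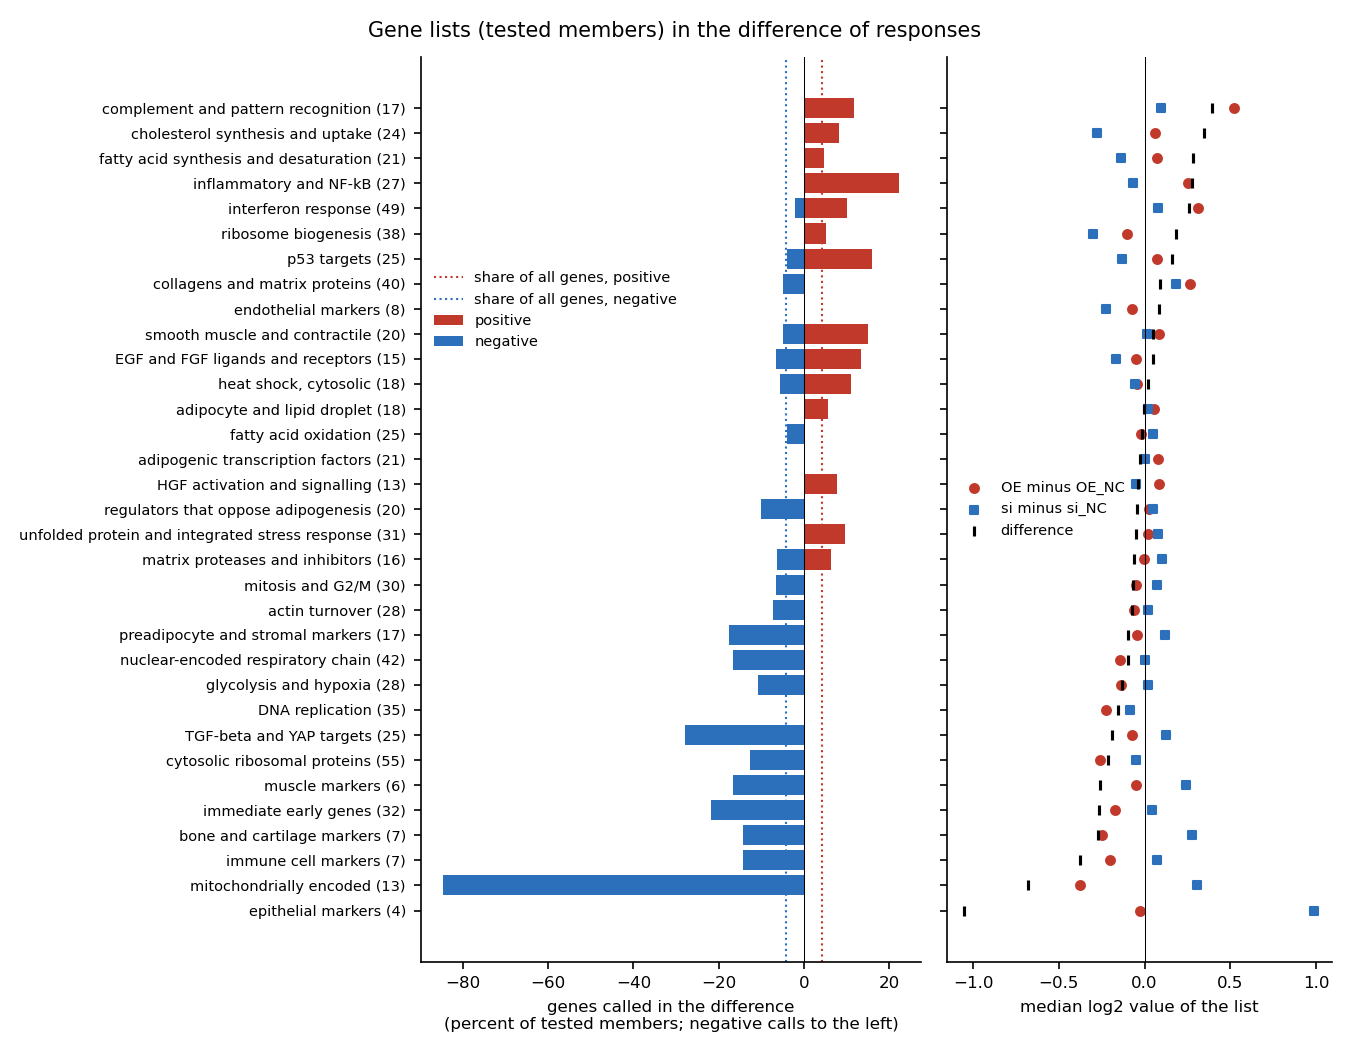
Left, percent of tested members of each gene list (number tested in brackets) called positive (red, right) or negative (blue, left) in the difference, with dotted lines at the shares of all genes, 4.29 and 4.12 percent. Right, median log2 change in OE (circles) and si (squares) and median difference (bars); the mitochondrially encoded list reaches 11 of 13 negative calls, and the largest share of positive calls is 6 of 27 in the inflammatory list.

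Markers of other cell types ranged widely in level. DES, the muscle intermediate filament desmin, averaged 569 CPM, SPP1, the bone matrix protein osteopontin, 116 CPM and FLT1, a VEGF receptor of endothelium, 64.2 CPM. The muscle factors MYOD1 and MYOG averaged 0.0427 and 0.00586 CPM, the pan-leukocyte marker PTPRC averaged 0.0285 CPM, the endothelial markers PECAM1 and CDH5 averaged 0.365 and 0.318 CPM, and the epithelial marker EPCAM 0.0333 CPM. The summed level of 5 immune markers ranged from 8.06 to 9.80 CPM in OE, 9.27 to 9.87 in OE_NC, 9.94 to 10.3 in si and 8.70 to 10.9 in si_NC. The summed level of 4 muscle markers, most of it DES, was 713 to 743 CPM in OE, above 517 to 589 in OE_NC, while si (478 to 632) and si_NC (478 to 573) overlapped. The sum of 5 bone and cartilage markers, most of it SPP1, was 64.7 to 70 CPM in OE, below 78.4 to 129 in OE_NC, and 109 to 130 in si, below 135 to 225 in si_NC. The sum of 5 epithelial markers was 2.47 to 3.52 CPM in si, above 1.44 to 2.04 in si_NC, while OE (2.52 to 3.82) and OE_NC (2.58 to 3.27) overlapped. The sum of 5 endothelial markers overlapped in both experiments, at 57.9 to 64.6 CPM in OE, 63.7 to 83.5 in OE_NC, 55.4 to 77.8 in si and 52.8 to 76.9 in si_NC. Among marker lists, 1 of 7 immune (14.3 percent) and 1 of 6 muscle genes (16.7 percent) were called. So was 1 of 7 bone and cartilage genes (14.3 percent), against 8.41 percent of all genes. None of 8 endothelial or 4 epithelial genes was called, and the median of the 4 epithelial genes was -1.05. In each of these last lists 1 gene had an unadjusted p under 0.05 by edgeR, and DESeq2 and limma called none. CSF1R, the macrophage growth factor receptor, was the immune member at -1.51 ± 0.35 (adjusted p = 0.0181) with levels of 0.739 to 1.99 CPM, and it was not called without si replicate 1 or OE_NC replicate 2. Among 17 preadipocyte and stromal markers THY1, VIM and S100A4 were negative, and none of the 3 was called with the length trend taken out, which gave 2 other members as positive. The list gave 1 negative call without OE replicate 1 or 2, si_NC replicate 3 or OE_NC replicate 2. The part of cell composition in the gene group results was not tested.

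Called genes differed in length by direction. The median exon length was 3947 bases in genes with a positive difference, 1319 bases in genes with a negative one and 2923 bases in all genes tested. Genes were put in 5 equal groups by length. In the shortest group (54 to 1413 bases) 10.9 percent were called negative and 1.5 percent positive, with a median difference of -0.26. In the longest group (5444 to 106333 bases) 1.1 percent were called negative and 6.63 percent positive, with a median of 0.085. The shortest group had a median change of -0.22 in OE and 0.059 in si.

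The libraries themselves differed in this respect. The log2 level of the shortest 25 percent of genes relative to the longest 25 percent was -0.0958 to -0.0467 in OE and 0.0656 to 0.425 in OE_NC, the highest being replicate 1. It was -0.209 in si replicate 3, against 0.0162 and 0.0513 in the other two, and -0.166 in si_NC replicate 2, against -0.00681 and 0.000177 in the other two. By group medians the mitochondrial share went the same way as the short genes. OE lay below OE_NC in both (-0.0903 and 0.153 in short genes, 1.33 and 1.77 percent in mitochondrial share). The si group lay above si_NC in both (0.0162 and -0.00681, 2.03 and 1.63 percent). Single libraries did not all keep this order. The lowest in short genes, si replicate 3, had the highest mitochondrial share, 2.26 percent, and the highest in short genes, OE_NC replicate 1, had 1.77 percent. The part of length in the results for groups of short genes was not tested beyond the fit with the trend taken out. Of the 95 named genes called in the difference, 80 kept their call in that fit and none changed sign.

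**Figure D5:**
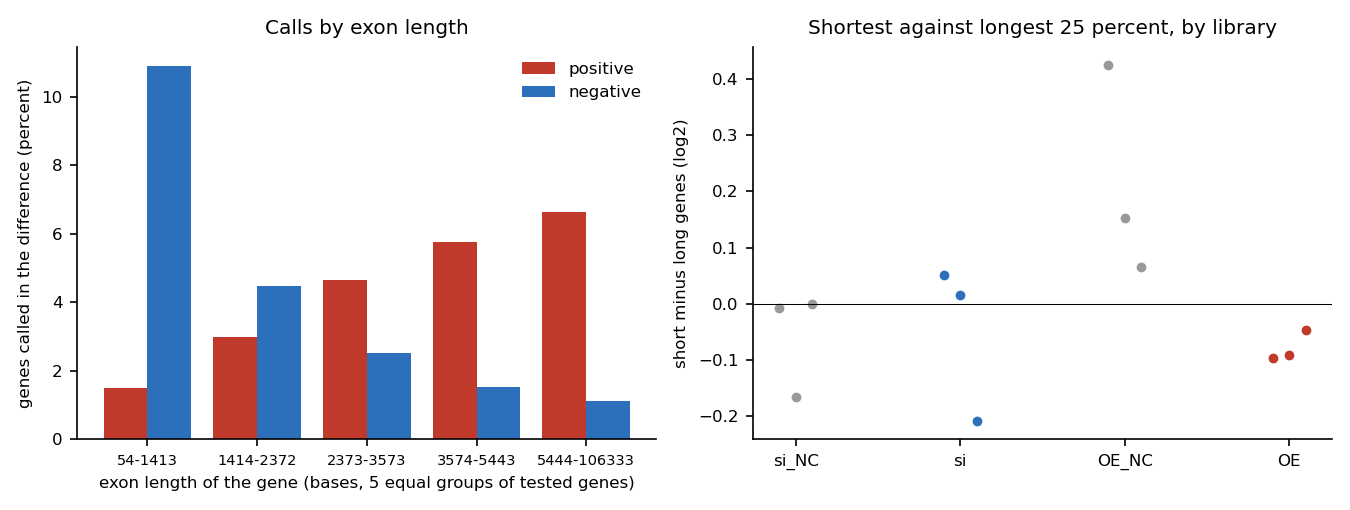
Left, percent of genes called positive (red) and negative (blue) in the difference by exon length in bases, in 5 groups of equal size. Right, log2 level of the shortest 25 percent of genes relative to the longest 25 percent in each library; the OE libraries lie below 0, all 3 OE_NC libraries above it with replicate 1 at 0.425, and si replicate 3 and si_NC replicate 2 are the lowest points at -0.209 and -0.166.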

How the data were processed

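Per the labels, total RNA of transfected Bos taurus precursor adipocytes was made into 12 stranded libraries from polyadenylated RNA, 3 in each of 4 groups taken from the sample titles. The authors deposited raw counts per gene, and RPKM computed from them. Per the submitters' processing notes the tools were fastp 0.23.0 and, from Subread 1.5.1, featureCounts. The aligner is not given in the sources used here, nor are genome build and counting strand. Of the table's columns 0 were left unmapped. Left out were 2 entries without a gene name, with 0.0868 to 0.116 percent of counts. Even numbers made up 66.2 to 69.3 percent of the nonzero counts, so halved counts were tried.

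In R 4.3.3, edgeR 4.0.16 was fitted to the counts after TMM scaling, with filterByExpr (minimum count 10, minimum total 15), a mean per group in 1 fit of 12 libraries (8 residual degrees of freedom), and the quasi-likelihood F test of (OE minus OE_NC) minus (si minus si_NC) and of both parts. P-values were adjusted by Benjamini-Hochberg over all genes tested, with a threshold of 0.05. The procedure was checked on simulated data. Normalised CPM are TMM-scaled, and they compare libraries within a gene, since gene length is not divided out.

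Members of 33 lists were matched by symbol: 846 of 856 entries, 4 of them by synonym, and 775 entered the test. Lists are described by counts and medians, with no set test. Named were HGFAC; among called genes with a symbol and a mean of at least 5 CPM, the 12 largest positive and 12 largest negative differences and the 10 smallest p-values; up to 10 genes called with opposite signs in both experiments; and for each list up to 4 of its called members, or the most abundant one where none was called. Some are given only in counts, and further list members were named after their values were seen. Genes and lists were chosen with earlier results of these data known. Exon overlaps were computed from the exon coordinates in the count table.

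Other settings tried were library totals, DESeq2 size factors, the DESeq2 1.42.0 Wald test, no filter on low counts, 5 CPM in 3 libraries, a 2-fold minimum, fits of 1 experiment, replicate number as a block, limma 3.58.1 on log2 RPKM with 1 or 0.1 added, halved counts, an offset for exon length (natural spline with 4 degrees of freedom per library) and leaving out each library. Fits without si replicate 3 and si_NC replicate 2, and without OE_NC replicate 1 as well, were chosen after seeing the data. No replicates were identical or agreed within sampling noise. The raw reads were not analysed here.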

Additional observations from a re-analysis of the deposited data

Results flagged for a closer look

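In 15 of the named genes the experiments moved in opposite directions, each change passed its test in the fit of 12 libraries, and the difference passed as well. These tests shared 1 estimate of the spread from all 12 libraries. In its own 6 libraries si gave 8 calls against 414, so not all 15 can pass in si alone. The list of 15 follows from the rule for naming genes and is part of the 67 genes of this kind. Positive differences, with a rise in OE and a fall in si, were 1.00 in NEXN, 0.93 in ABCA1, 0.88 in BABAM1, 0.71 in TRIM25 and 0.69 in CDADC1, which shares 2273 of its 4544 exon bases with LOC104970162 on the other strand. Negative differences of nuclear genes, with a fall in OE and a rise in si, were -1.34 in H2AFV, -1.09 in TRDMT1, -0.9997 in ID2 and -0.73 in DUSP1. The other 6 are encoded by the mitochondrial genome: -1.26 in ATP8, -1.11 in each of the tRNA genes KEH36_t20 and KEH36_t14, -1.003 in ND6, -0.79 in ND1 and -0.76 in COX3. All 15 stayed called in the difference when each library was left out in turn. Their single changes in OE and si were not followed in these fits, in which OE gave 19 to 1414 calls and si 56 to 1083. With the trend on gene length taken out, ND6 and COX3 had adjusted p-values of 0.0502 and 0.062. Groups of 3 libraries are too small for a check of single outlying values.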

How the results depend on the processing

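The difference gave 1371 calls. It gave 305 with a replicate block within each experiment, 346 with a minimum of 2-fold, and 588 (without OE_NC replicate 2) to 2152 (without si replicate 3) when each library was left out. Without si replicate 3 and si_NC replicate 2 together it gave 2305, and 3398 without OE_NC replicate 1 as well. The other settings gave 1209 to 1955 calls. Of the 1371, 1339 were shared with the fit on DESeq2 size factors, 936 with library totals, 1092 with the length offset and 901 with limma on log2(RPKM + 1), where the share of positive calls was 18.5 percent, and 17.9 percent with 0.1 added. In all 12 fits that left out a library, 477 genes were called, 239 of them positive.

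OE gave 728 calls, against 1541 by DESeq2, 1679 with no filter, 76 with the replicate block within each experiment, 86 at 2-fold or more, 1621 in its 6 libraries alone, and 19 (without OE replicate 2) to 1414 (without si replicate 3) with a library left out. Without 2 and without 3 libraries it gave 2325 and 2136. The si comparison gave 414 calls, against 1125 by DESeq2, 1208 with no filter, 17 with the replicate block within each experiment, 1093 with the length offset, 29 at 2-fold or more, 8 in its 6 libraries alone, and 56 (without si_NC replicate 1) to 1083 (without si_NC replicate 2) with a library left out. Without 2 and without 3 libraries it gave 1119 and 2662. The cause of these shifts was not tested.

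Replicate numbers do not pair the libraries: deviations of same-numbered libraries correlated at -0.257 to 0.279. A block shared by the 4 groups gave 1247 calls. HGFAC kept its call and sign in every setting tried (8.81 to 9.26 with a library left out). Of 95 named genes called, 61 were called in all 12 fits that left out a library, 81 with library totals, 48 with the block within each experiment, 92 by DESeq2 and 74 by limma on log2(RPKM + 1), and none changed sign.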

Other observations

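Several genes of pre-mRNA splicing were positive in the difference and stayed called when each library was left out in turn. They were picked for these calls after their values were seen and were not on a list. Splicing genes as a group were not counted, so no share can be set beside the 8.41 percent of all genes called. LUC7L3, a protein of the U1 snRNP, had a log2 difference of 0.71 (adjusted p = 0.00238), with 0.32 in OE and -0.38 in si. NSRP1, a nuclear speckle protein, had 0.67, RBM25, a splicing regulator, 0.64, SYF2, a spliceosome component, 0.62, PRPF4B, a kinase of splicing factors, 0.60, and PRPF38B 0.57. With the trend on gene length taken out their differences were 0.59 to 0.87.

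A few other genes picked after their values were seen showed larger negative differences. ACKR3, a scavenger receptor for the chemokine CXCL12, had a difference of -1.08 (adjusted p = 0.00186), with means of 18.7 CPM in OE, 22.4 in OE_NC, 23.7 in si and 13.5 in si_NC. SLC31A1, the copper importer, had a difference of -0.81 (adjusted p = 0.00156). It averaged 50.6 CPM in OE, 57.3 in OE_NC, 58.5 in si and 37.9 in si_NC. ZEB2, a transcriptional repressor of mesenchymal cells, was positive at 0.59 (adjusted p = 0.0016).

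Across the 16300 genes the changes in OE and si correlated at r = -0.16 (Pearson) and rho = -0.13 (Spearman). This is a description across genes, which are not independent, and the 2 experiments share no library. The estimates had opposite signs in 54.2 percent of genes tested.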
